A study of Mus musculus with 7 samples.

Results

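The genes described here encode 9 receptors through which a T cell receives a second signal beside that of its antigen receptor: Icos, Cd28, Cd27 and Tnfrsf9, which amplify activation, and Ctla4, Pdcd1, Btla, Lag3 and Cd200r1, which restrain it. They were chosen by name, with earlier results of these data known. All 9, of 18193 genes with a probe set of 1 gene symbol, were present on the array, with 15 probe sets among them. The probe set with the highest mean represented each gene. All 9 passed the filter on low values, an intensity of 82 (the median over the whole table) reached in at least 2 arrays, as did 10874 genes. Ctla4 passed through the CD4SP arrays alone, Lag3 through NKT arrays alone, and Cd200r1 through the Luxoid and CD4SP arrays.

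The study profiled T cells sorted from thymi of C57BL/6J-background mice aged 4 to 6 weeks on 7 single-colour Affymetrix arrays. Luxoid stage 1 NKT (n = 3) came from mice with the Valpha14 T cell receptor transgene and the Luxoid mutation of Zbtb16, which the labels describe as PLZF-deficient. Stage 1 NKT (n = 2) came from mice with the same transgene and no Luxoid mutation, and CD4SP thymocytes (n = 2) from wild-type mice without the transgene. Both NKT groups therefore carried the transgene and the CD4SP group did not, so cell type and transgene cannot be told apart in comparisons with CD4SP. NKT were gated as CD1d tetramer-positive, CD24-low, CD44-negative and NK1.1-negative. The cell type label of the CD4SP samples repeats that NKT gate, while their titles and sources name CD4SP, which was followed here. Every sample was a pool of mice, and the number of arrays limits the precision.

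T cell activation starts at the antigen receptor and is tuned by receptors of this kind. CD28 and its relative ICOS bind B7-family ligands and recruit phosphoinositide 3-kinase, while CTLA-4 competes with CD28 for the same ligands and PD-1 recruits phosphatases. CD27 and 4-1BB (Tnfrsf9) belong to the tumour necrosis factor receptor superfamily and signal through TRAF adaptors. NKT cells recognise lipids presented by CD1d, acquire effector properties in the thymus under the transcription factor PLZF, and are known to carry ICOS at high levels.

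Array medians lay between 79.6 and 83.7, and arrays of 1 group correlated at r = 0.984 to 0.992 over all probe sets. Cd3e, a chain of the T cell receptor complex, read 4035 to 5837 in all 7 arrays. Zbtb16 read 1857 to 2774 in Luxoid NKT, 2751 to 3488 in stage 1 NKT and 61.8 to 87.3 in CD4SP. Its transcript was present in Luxoid NKT, so this level does not check the label of the mutation. Cd24a, a gene of the gate, read 14.9 to 57.1 in Luxoid NKT, 14.2 and 14.1 in stage 1 NKT, and 239 to 246 in CD4SP. Cd44, another gene of the gate, read 180 to 310 over all 7 arrays, above the filter, and the groups did not separate. Within each group the pools were not of 1 sex: the Y-linked transcript Kdm5d read 6.49 to 11.7 in the 3 arrays numbered 1 and 758 to 2331 in the other 4. Luxoid array 3 and stage 1 NKT array 2 also carried Xist (5426 and 3888).

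Differences are given on the log2 scale with the standard error and the adjusted p of a limma fit over all genes tested. Between Luxoid and unmutated stage 1 NKT, the comparison that asks which transcripts differ when PLZF is lacking, 1 member rose, 1 fell and 7 did not pass the threshold of 0.05. Over all genes 1.55% passed (0.901% higher and 0.653% lower), so 2 of 9 members stand against 169 of 10874 genes. Because the members were chosen with earlier results known, such shares, here and below, are a description and not a test. The members that passed were Cd200r1, which rose, and Icos, which fell. The median difference was 0.18 over the 9 members and -0.03 over all genes tested. The groups did not overlap for 6 of the 9 members, against 26.7% of all genes tested.

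Stage 1 NKT against CD4SP gave 2 members higher and 3 lower, where 14.9% of all genes passed. Pdcd1 and Icos were higher (10.8% of all genes were), and Ctla4, Cd200r1 and Tnfrsf9 were lower (4.08% of all genes were). The groups did not overlap for 8 of 9 members, against 60.2% of all genes. Luxoid NKT against CD4SP gave 2 members higher (Pdcd1 and Lag3) and 2 lower (Ctla4 and Tnfrsf9), where 16.8% of all genes passed, 11.3% higher and 5.51% lower. The groups did not overlap for 6 of 9 members, against 46% of all genes. These 3 comparisons share arrays in pairs, so they are not independent of one another.

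**Figure D1:**
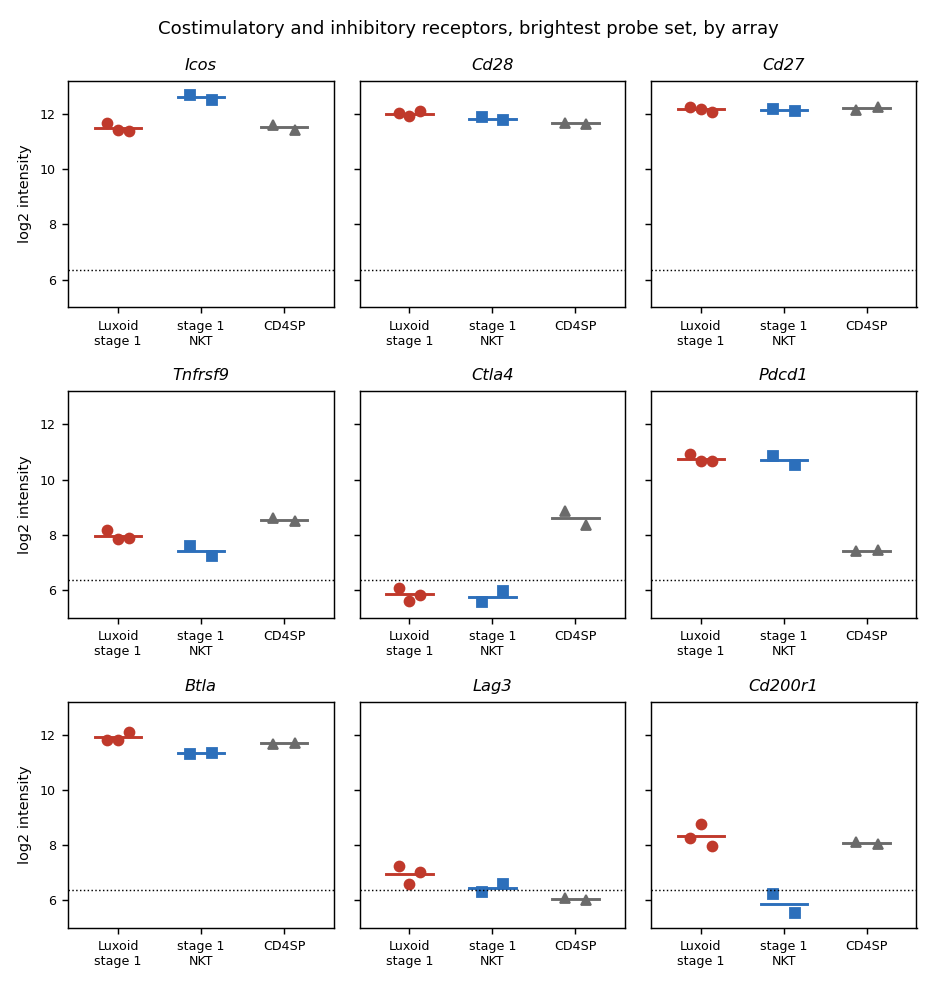
Each panel plots the log2 intensity of 1 receptor gene (y axis) in every array of Luxoid stage 1 NKT (circles, n = 3), stage 1 NKT (squares, n = 2) and CD4SP (triangles, n = 2); bars are group means and the dotted line is the intensity of 82 used as filter. Icos is high in stage 1 NKT alone, Cd200r1 is low in stage 1 NKT alone, Pdcd1 is high and Ctla4 low in both NKT groups, and Cd27 is level.

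Icos, a costimulatory receptor of the CD28 family, read 3298, 2722 and 2652 in the Luxoid arrays, 6599 and 5867 in the stage 1 NKT arrays, and 3135 and 2778 in the CD4SP arrays. Both stage 1 NKT arrays stood above all 5 others, and the Luxoid and CD4SP arrays overlapped. Icos fell 2.16-fold in Luxoid NKT relative to stage 1 NKT (-1.11 ± 0.15, adjusted p = 0.00946 by limma) and stood 2.11-fold above CD4SP in stage 1 NKT (1.08 ± 0.17, adjusted p = 0.00395). Between Luxoid NKT and CD4SP the difference was -0.04, with a 95% interval of -0.39 to 0.31 (adjusted p = 0.905).

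The other Icos probe sets also put both stage 1 NKT arrays above all 5 others. The second read 1798, 1959 and 1589 in Luxoid NKT, 4034 and 4078 in stage 1 NKT, and 1739.5 and 1604 in CD4SP. The third read 1317, 1025 and 879.96 in Luxoid NKT, 3127 and 2935 in stage 1 NKT, and 1114 and 1049.9 in CD4SP. When every probe set was tested on its own, all 3 passed for Luxoid against stage 1 NKT, with differences of -1.11, -1.19 and -1.52 and adjusted p of 0.0148, 0.00700 and 0.00652. The fall missed the threshold when either stage 1 NKT array was left out (-1.03 with adjusted p = 0.125 without array 1, and -1.20 with 0.0807 without array 2). It also missed it without both pools that carried Xist and Y-linked signal (-1.14, adjusted p = 0.248), while it passed with Y-linked expression as a covariate (-1.08, adjusted p = 0.00610).

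Cd200r1 encodes the receptor of CD200 and is best known as an inhibitory receptor of myeloid cells that T cells can also carry. It read 302, 438 and 253 in Luxoid NKT, 74.7 and 46.3 in stage 1 NKT, and 277 and 262 in CD4SP. Both stage 1 NKT arrays lay under the intensity filter and below all 5 others, and the Luxoid arrays spanned the CD4SP arrays. Against the filter value Cd200r1 was at least 3.93-fold higher in Luxoid NKT than in stage 1 NKT (2.45 ± 0.27, adjusted p = 0.00254) and at least 3.28-fold lower in stage 1 NKT than in CD4SP (-2.19 ± 0.29, adjusted p = 0.00177). Luxoid NKT and CD4SP differed by 0.26, with a 95% interval of -0.35 to 0.87 (adjusted p = 0.564).

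A dimmer Cd200r1 probe set lay under the filter in every array, at 31.3, 20.5 and 28.3 in Luxoid NKT, 9.68 and 7.91 in stage 1 NKT, and 29.8 and 33.6 in CD4SP. Its stage 1 NKT arrays were again the lowest. The rise in Luxoid NKT passed without any 1 of the 7 arrays, with adjusted p up to 0.0419 (without stage 1 NKT array 2), and missed the threshold without both mixed-sex pools (2.28, adjusted p = 0.0781), a fit that left 1 stage 1 NKT array. The related genes Cd200r3 and Cd200r4, whose products resemble CD200R1, read at most 25.8 in every array. Cd200r4 read 23.3, 13.3 and 7.07 in Luxoid NKT, 4.78 and 5.43 in stage 1 NKT, and 15.7 and 14.6 in CD4SP, so its stage 1 NKT arrays were also the lowest, under the filter as in all arrays. Cross-hybridisation within this family was not tested, for lack of probe sequences.

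Markers of cells that could carry Cd200r1 were read beside it. Of 7 myeloid or dendritic markers, 1 (Cd68) reached the filter in any array, and their summed intensity was 324 to 346 in Luxoid NKT, 327 to 376 in stage 1 NKT and 378 to 390.1 in CD4SP. The sum of 4 mast cell or basophil markers was 303 to 351 in Luxoid NKT, 134 to 143 in stage 1 NKT and 121 to 122 in CD4SP. That sum moved through Cpa3, a mast cell protease gene, while Kit, Mcpt8 and Fcer1a lay under the filter in all arrays. Cpa3 read 231, 255 and 250 in Luxoid NKT, 68.0 and 48.5 in stage 1 NKT, and 32.6 and 28.3 in CD4SP. It reached the filter in the Luxoid arrays alone. There it was at least 2.99-fold higher than in stage 1 NKT (2.09 ± 0.17, adjusted p = 0.000787 by limma). NK cell markers summed to 895 to 1032, 278 to 307 and 118 to 140.4 in the same order of groups, and of these Fcer1g alone reached the filter. The part of these cells in the Cd200r1 result was not tested. In bulk arrays a larger share of cells carrying a transcript and more of it per cell cannot be told apart.

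**Figure D2:**
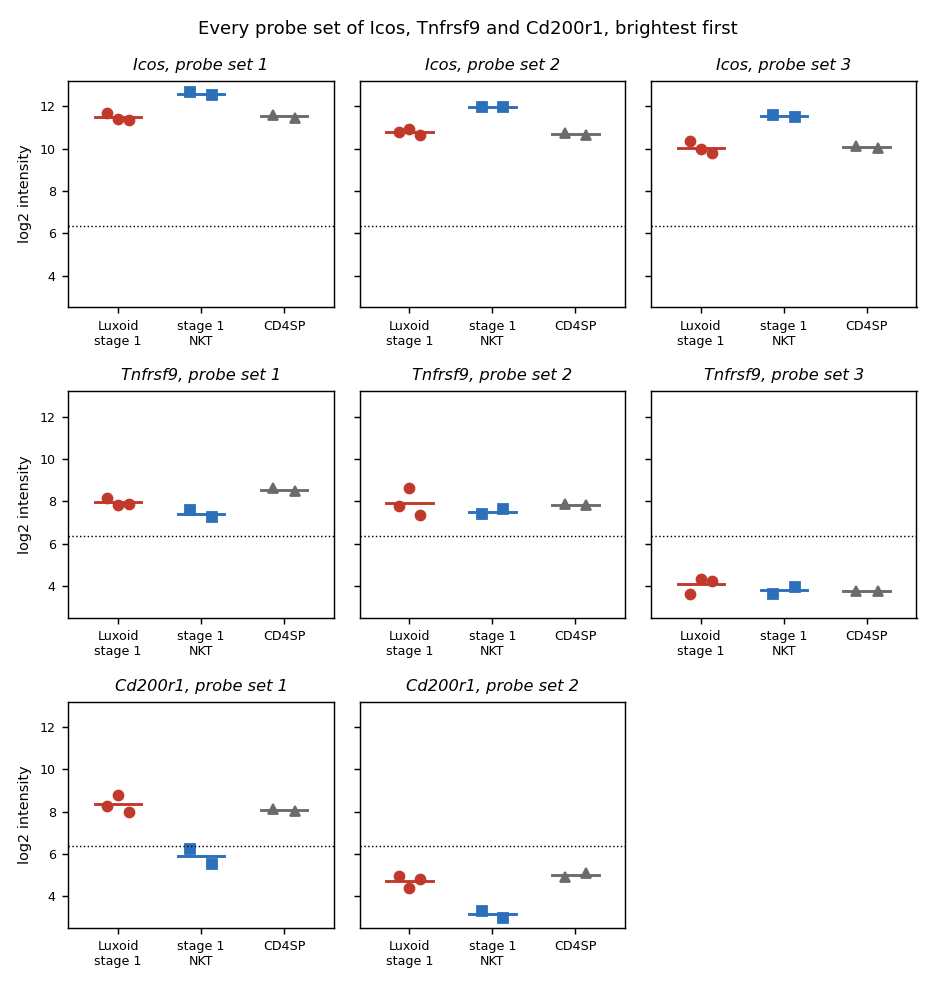
Panels plot the log2 intensity (y axis) of each probe set of Icos, Tnfrsf9 and Cd200r1 by array, in Luxoid stage 1 NKT (circles), stage 1 NKT (squares) and CD4SP (triangles), with bars at the group means and a dotted line at the filter of 82. All 3 Icos probe sets and both Cd200r1 probe sets set the stage 1 NKT arrays apart from the 5 others, whereas all 3 groups are apart in the brightest Tnfrsf9 probe set alone.

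Pdcd1, which encodes the inhibitory receptor PD-1, read 1926, 1639 and 1650.4 in Luxoid NKT, 1874 and 1491 in stage 1 NKT, and 169 and 174 in CD4SP. The NKT groups overlapped, and all 5 NKT arrays lay above both CD4SP arrays. Luxoid NKT exceeded CD4SP 10.1-fold in Pdcd1 (3.34 ± 0.15, adjusted p = 5.36e-06) and stage 1 NKT exceeded CD4SP 9.74-fold (3.28 ± 0.17, adjusted p = 1.32e-05). Luxoid minus stage 1 NKT was 0.05, and its 95% interval of -0.30 to 0.40 bounds a difference between these groups (adjusted p = 0.944).

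Ctla4, the inhibitory receptor that competes with CD28 for CD80 and CD86, ran the other way. It read 67.5, 48.8 and 57.0 in Luxoid NKT, 47.1 and 61.6 in stage 1 NKT, and 464 and 326 in CD4SP. All 5 NKT arrays lay under the filter, so Ctla4 was at least 4.74-fold lower in either NKT group than in CD4SP (-2.76 ± 0.21 for Luxoid with adjusted p = 6.88e-05, and -2.85 ± 0.23 for stage 1 NKT with adjusted p = 0.000135). The Luxoid and stage 1 NKT arrays overlapped.

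Pdcd1 and Ctla4 carry the largest differences of the 9 genes from CD4SP, in opposite directions, and their promoters are shown for that reason. The lines give the 250 bases before the transcription start, from RefSeq on GRCm38.p6, 5′ to 3′ on the strand of the gene. Capitals mark GGAAA, the core bound by NFAT factors, or TTTCC, the same letters read on the other strand.
Pdcd1, chr1:94052554-94052803, minus strand: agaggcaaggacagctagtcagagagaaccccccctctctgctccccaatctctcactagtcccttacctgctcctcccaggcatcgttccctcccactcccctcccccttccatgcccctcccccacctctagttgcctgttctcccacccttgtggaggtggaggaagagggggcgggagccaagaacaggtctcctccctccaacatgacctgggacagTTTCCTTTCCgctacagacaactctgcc
Ctla4, chr1:60908775-60909024, plus strand: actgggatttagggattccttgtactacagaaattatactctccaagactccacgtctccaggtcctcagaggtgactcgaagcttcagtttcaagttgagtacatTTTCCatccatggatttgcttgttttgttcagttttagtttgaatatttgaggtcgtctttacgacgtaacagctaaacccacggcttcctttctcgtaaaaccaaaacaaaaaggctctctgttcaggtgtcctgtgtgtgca
The Pdcd1 window held 2 matches, side by side and without overlap, and the Ctla4 window held 1. Of 27025 promoter windows of the same length, 55.6% held at least 1 match and 21.7% at least 2. TGANTCA, the letters of an AP-1 site, was in neither window and in 6.87% of all. A match to letters is a description and not a binding site. Of the 9 genes, 5 had a promoter window in the table: Ctla4, Pdcd1, Btla, Cd27 and Tnfrsf9.

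Regulatory T cells express CTLA-4 constitutively, and their defining gene Foxp3 was therefore read beside Ctla4. It read 193, 148 and 174 in Luxoid NKT, 161 and 166 in stage 1 NKT, and 465 and 449 in CD4SP. Foxp3 was lower in Luxoid NKT (-1.42 ± 0.15, adjusted p = 0.000397) and in stage 1 NKT (-1.48 ± 0.16, adjusted p = 0.000640) than in CD4SP. The other 3 markers of the list did not all follow it. Il2ra was lower in Luxoid NKT (-1.62 ± 0.21, adjusted p = 0.00107), and in stage 1 NKT it did not pass (-0.70 ± 0.23, adjusted p = 0.0737). Ikzf2 was higher than in CD4SP in both Luxoid NKT (1.27 ± 0.26, adjusted p = 0.0111) and stage 1 NKT (1.15 ± 0.28, adjusted p = 0.0279). Nrp1 was lower in Luxoid NKT (-1.01 ± 0.18, adjusted p = 0.00698) and higher in stage 1 NKT (0.74 ± 0.20, adjusted p = 0.0434). Over all 4 markers the summed intensity was 1173 to 1926 in Luxoid NKT, 1392 to 1907 in stage 1 NKT and 1227 to 1329 in CD4SP, with 3, 4 and 4 of the 4 at the filter in at least 1 array. The 6 markers of immature double-positive thymocytes summed to 384 to 506 in Luxoid NKT, 283 to 295 in stage 1 NKT and 910 to 1033 in CD4SP. Of these, 3, 1 and 3 reached the filter in Luxoid NKT, stage 1 NKT and CD4SP, and Rag1, Rag2 and Ptcra lay under it in all arrays. The part of either cell type in the Ctla4 difference was not tested.

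Cd28, the founding costimulatory receptor of naive T cells, read 4179.9, 3869 and 4419 in Luxoid NKT, 3803 and 3511 in stage 1 NKT, and 3266 and 3237 in CD4SP. The Luxoid arrays were the highest and the CD4SP arrays the lowest without overlap, but no difference passed. Luxoid minus stage 1 NKT was 0.18 (95% interval -0.12 to 0.48, adjusted p = 0.675), stage 1 NKT minus CD4SP was 0.17 (-0.16 to 0.50, adjusted p = 0.480) and Luxoid minus CD4SP was 0.35 (0.05 to 0.65, adjusted p = 0.112). The last of these adjusted p reached 0.0338 by limma with a mean-variance trend in the model of the spread. The other Cd28 probe set differed by 0.05, 0.01 and 0.06 in the same order.

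Cd28, Ctla4 and Icos lie next to each other on chromosome 1 in the GRCm38.p6 annotation, with no other protein-coding gene between them, and they had 3 different patterns: no called difference, low in both NKT groups, and high in stage 1 NKT alone. None of the 9 genes shares a chromosome with Zbtb16, which is on chromosome 9.

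Cd27, a costimulatory receptor of the tumour necrosis factor family, read 4936, 4608 and 4342 in Luxoid NKT, 4608 and 4405 in stage 1 NKT, and 4553 and 4952 in CD4SP. All 3 groups overlapped. The differences were 0.04 for Luxoid minus stage 1 NKT (95% interval -0.26 to 0.34), -0.08 for stage 1 NKT minus CD4SP (-0.41 to 0.25) and -0.04 for Luxoid minus CD4SP (-0.34 to 0.26), with adjusted p of 0.956, 0.767 and 0.882.

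Tnfrsf9, which encodes the activation-induced receptor 4-1BB, read 289, 229.6 and 236 in Luxoid NKT, 192 and 151 in stage 1 NKT, and 389 and 359 in CD4SP. The 3 groups did not overlap, with Luxoid NKT between the others. Tnfrsf9 was 2.20-fold lower in stage 1 NKT than in CD4SP (-1.13 ± 0.18, adjusted p = 0.00451) and 1.5-fold below CD4SP in Luxoid NKT (-0.58 ± 0.17, adjusted p = 0.0459). Luxoid minus stage 1 NKT was 0.55 ± 0.17 and did not pass (adjusted p = 0.211). In a second probe set, where none of the differences passed, the Luxoid arrays overlapped both other groups and stage 1 NKT lay below CD4SP, at 217, 392.1 and 163 in Luxoid NKT, 170.1 and 196 in stage 1 NKT, and 231 and 228 in CD4SP. The third probe set lay under the filter in every array, at 12.2 to 20.2. With the mean of all 3 probe sets, which includes that one, neither difference from CD4SP passed (-0.47 with adjusted p = 0.0884 for stage 1 NKT, -0.06 with 0.822 for Luxoid). Leaving out any 1 array other than Luxoid array 1 also ended the Luxoid call (adjusted p = 0.0545 to 0.210), so that call rests on nearly every array.

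Btla, an inhibitory receptor that binds HVEM, read 3615, 3576 and 4349 in Luxoid NKT, 2541 and 2572 in stage 1 NKT, and 3258 and 3306 in CD4SP. The Luxoid arrays all lay above the stage 1 NKT arrays, by 0.58 ± 0.14, but limma's adjusted p of 0.109 missed the threshold. It reached 0.0308 with a mean-variance trend in the model of the spread. Stage 1 NKT minus CD4SP was -0.36 (95% interval -0.71 to -0.01, adjusted p = 0.162) and Luxoid minus CD4SP was 0.22 (-0.10 to 0.54, adjusted p = 0.333).

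Lag3, an inhibitory receptor that binds class II molecules of the major histocompatibility complex, read 149, 96.2 and 130.4 in Luxoid NKT, 77.9 and 95.5 in stage 1 NKT, and 67.4 and 64.8 in CD4SP. All Luxoid arrays, 1 stage 1 NKT array and no CD4SP array reached the filter. In Luxoid NKT Lag3 stood at least 1.5-fold above CD4SP (0.90 ± 0.20, adjusted p = 0.0169). That call was lost without Luxoid array 3 (0.0529) or either CD4SP array (0.0885 and 0.115). Luxoid minus stage 1 NKT was 0.52 ± 0.20 (adjusted p = 0.365) and stage 1 NKT minus CD4SP was 0.38 ± 0.22 (adjusted p = 0.287).

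**Figure D3:**
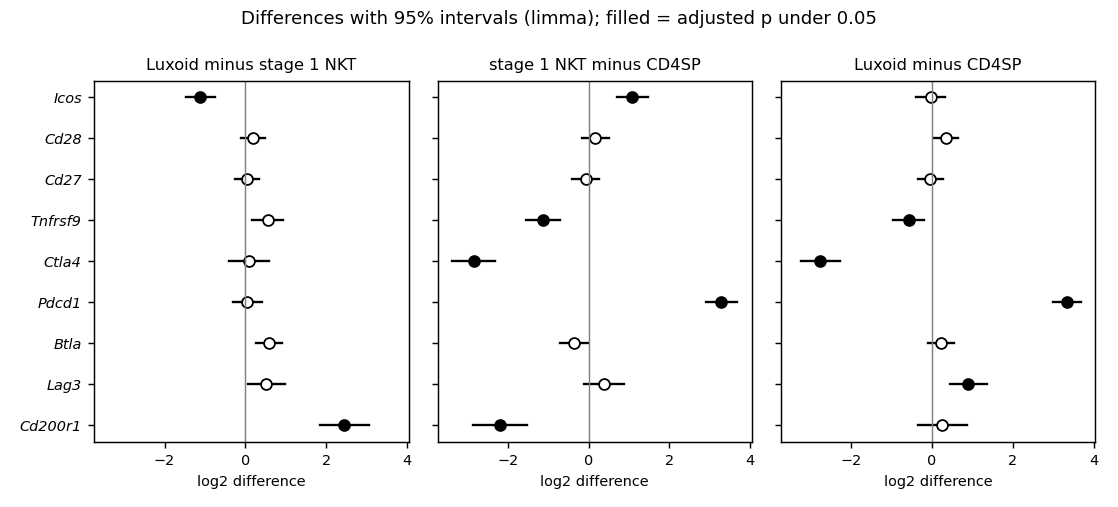
Log2 differences (x axis) of the 9 receptor genes for Luxoid minus stage 1 NKT, stage 1 NKT minus CD4SP and Luxoid minus CD4SP, with 95% intervals from limma; filled points have an adjusted p under 0.05. Icos and Cd200r1 are filled in the first and second panels with opposite signs and lie near 0 in the third, while Pdcd1 and Ctla4 lie near 0 in the first panel and far from it in the others.

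The level of Luxoid NKT was placed on the log2 axis that runs from the CD4SP mean, set to 0, to the stage 1 NKT mean, set to 1. Luxoid NKT stood at -0.03 for Icos, at 0.51 for Tnfrsf9 and at 1.02 for Pdcd1. The position of Tnfrsf9 rests on its brightest probe set. In its second probe set the log2 means were 7.91 in Luxoid NKT, 7.51 in stage 1 NKT and 7.84 in CD4SP, so Luxoid NKT did not lie between the others. Of the other members that differed between stage 1 NKT and CD4SP, Ctla4 lay under the filter in both NKT groups and Cd200r1 in stage 1 NKT, so neither is given a position. Over all 1621 genes that differed, with values under the filter included, the median position was 0.87, with 51 genes (3.15%) at or below 0.1 and 376 (23.2%) between 0.9 and 1.1. The position uses the same arrays as the comparisons above and is a description without a test.

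The ligands of these receptors were read in the same cells. Of 11 ligand genes 7 were tested, and between Luxoid and stage 1 NKT 1 rose and 1 fell, where 0.901% of all genes rose and 0.653% fell. Icosl, the ligand of ICOS, read 159, 144 and 158 in Luxoid NKT, 60.9 and 49.9 in stage 1 NKT, and 51.8 and 50.2 in CD4SP. It thus reached the filter in the Luxoid arrays alone, at least 1.87-fold higher than in stage 1 NKT (1.48 ± 0.14, adjusted p = 0.00147) and than in CD4SP (1.59 ± 0.14, adjusted p = 0.000162). With the mean of its probe sets the first difference was 0.90 (adjusted p = 0.0118), and without both mixed-sex pools it did not pass (1.31, adjusted p = 0.114).

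Lgals3, which encodes galectin-3, a reported ligand of LAG-3 among many partners, read 260, 253 and 226 in Luxoid NKT, 1363 and 1443 in stage 1 NKT, and 125 and 91.9 in CD4SP. All 3 groups were apart, with Luxoid NKT in between. Lgals3 was higher in stage 1 NKT than in CD4SP (3.71 ± 0.18, adjusted p = 1.25e-05) and fell in Luxoid NKT (-2.51 ± 0.16, adjusted p = 0.000275, and 0.0618 without both mixed-sex pools). Cd86, a ligand of CD28 and CTLA-4, was at most 62.4 in the 5 NKT arrays, under the filter, and read 138 and 101 in CD4SP. It was at least 1.44-fold lower in Luxoid NKT (-1.05 ± 0.18, adjusted p = 0.00546) and in stage 1 NKT (-1.17 ± 0.20, adjusted p = 0.00638). The Luxoid call on Cd86 was lost without CD4SP array 1 (0.0560), and the stage 1 NKT call without stage 1 NKT array 2 (0.0579) or both pools (0.0778). Pdcd1lg2, a ligand of PD-1, read 81.4, 126 and 124 in Luxoid NKT, 122 and 117 in stage 1 NKT, and 41.7 and 53.5 in CD4SP. It was higher in both NKT groups than in CD4SP (1.20 ± 0.22 with adjusted p = 0.00635 for Luxoid and 1.34 ± 0.24 with 0.00676 for stage 1 NKT), and neither call held without CD4SP array 1 (0.0693 and 0.0593). The stage 1 NKT call was also lost without stage 1 NKT array 1 (0.0589). Cd274, the other PD-1 ligand, read 186 to 251 in all arrays, with a Luxoid minus stage 1 NKT difference of 0.06 (adjusted p = 0.944).

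Among 9 other costimulatory receptors 8 were tested, and between Luxoid and stage 1 NKT 1 rose and 1 fell, against the same shares of all genes. Tnfrsf25, which encodes death receptor 3, read 81.7, 93.5 and 62.0 in Luxoid NKT, 179 and 200.3 in stage 1 NKT, and 237 and 271 in CD4SP. It fell in Luxoid NKT (-1.28 ± 0.19, adjusted p = 0.0140) and was lower than in CD4SP (-1.70 ± 0.19, adjusted p = 0.000546). Luxoid arrays 1 and 3 lay under the filter for Tnfrsf25, so the size of either difference rests in part on low values. Without both mixed-sex pools, a fit that left 1 stage 1 NKT array, the fall was -1.03 and was not called. Cd2, the receptor of CD48, read 6047, 6490.2 and 5563 in Luxoid NKT, 3606 and 3850.2 in stage 1 NKT, and 6374 and 6857 in CD4SP. Its rise in Luxoid NKT (0.69 ± 0.13, adjusted p = 0.0484) was lost without any 1 of the 7 arrays (0.0818 to 0.309), and the fall of Tnfrsf25 was lost without stage 1 NKT array 1 (0.111) or 2 (0.202).

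Against CD4SP, 1 of these 8 genes was higher and 3 were lower in each NKT group, not all of them the same. Of all genes 11.3% were higher and 5.51% lower in Luxoid NKT, and 10.8% higher and 4.08% lower in stage 1 NKT. Tnfrsf4 and Tnfrsf18 were lower in both, Tnfrsf25 in Luxoid NKT alone (adjusted p = 0.219 in stage 1 NKT) and Cd2 in stage 1 NKT alone. Cd2 was lower in stage 1 NKT by -0.83 ± 0.15 (adjusted p = 0.00733), a call lost without stage 1 NKT array 1 (0.0633) or CD4SP array 2 (0.0583). Luxoid minus CD4SP was -0.13 for Cd2 (0.556). Tnfrsf4, which encodes OX40, read 102, 91.5 and 84.8 in Luxoid NKT, 95.3 and 85.3 in stage 1 NKT, and 598 and 535 in CD4SP. It was 6.12-fold lower in Luxoid NKT (-2.61 ± 0.14, adjusted p = 1.35e-05) and 6.27-fold lower in stage 1 NKT (-2.65 ± 0.16, adjusted p = 2.99e-05). Cd226, an activating receptor, was the gene that stood above CD4SP, by 0.82 ± 0.20 in Luxoid NKT (adjusted p = 0.0251) and 0.79 ± 0.22 in stage 1 NKT (adjusted p = 0.0449). The Luxoid call on Cd226 was lost without Luxoid array 3 (adjusted p = 0.0699 by limma) and with the replicate block (0.0570). It was also lost without CD4SP array 1 (difference 0.60) or both mixed-sex pools (0.79). The stage 1 NKT call was lost without any 1 array other than Luxoid array 2 (differences of 0.54 to 1.03) and without both pools (1.03). It was lost as well with no filter (0.0609), the replicate block (0.0520) or quantile normalization once more (0.0629). Tnfrsf18, which encodes GITR, was lower by -0.58 ± 0.14 in Luxoid NKT (adjusted p = 0.0259) and -0.72 ± 0.16 in stage 1 NKT (adjusted p = 0.0179). The Luxoid call on Tnfrsf18 was lost without Luxoid array 2 (0.0560) or 3 (0.0594), or either CD4SP array (0.160 and 0.0757). The stage 1 NKT call was lost without any 1 of the 4 arrays compared (0.0560 to 0.107). Like Ctla4, Tnfrsf4 is highly expressed by regulatory T cells, whose 4 markers are given above. Foxp3 was lower than in CD4SP in both NKT groups, and Ikzf2 was higher in both. The part of these cells in the Tnfrsf4 difference was not tested.

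Of 11 other inhibitory receptors 5 were tested. Lair1, a collagen receptor, read 86.1, 70.1 and 49.8 in Luxoid NKT, 168 and 232 in stage 1 NKT, and 230.2 and 271 in CD4SP. It fell in Luxoid NKT (-1.56 ± 0.24, adjusted p = 0.0178), which missed the threshold without the first (0.0764) or the second (0.244) stage 1 NKT array. Cd160, another HVEM receptor, read 519.7, 626 and 677 in Luxoid NKT, 414 and 321 in stage 1 NKT, and 134 and 113 in CD4SP. It was higher than in CD4SP in both Luxoid NKT (2.30 ± 0.18, adjusted p = 7.06e-05) and stage 1 NKT (1.57 ± 0.20, adjusted p = 0.00131), and Luxoid minus stage 1 NKT was 0.73 ± 0.18 (adjusted p = 0.114). Cd96, a relative of CD226, was lower than in CD4SP in Luxoid NKT (-1.90 ± 0.18, adjusted p = 0.000224) and in stage 1 NKT (-1.15 ± 0.20, adjusted p = 0.00608). The stage 1 NKT call on Cd96 did not hold without stage 1 NKT array 1 (0.0568), CD4SP array 2 (0.0550) or both pools (0.0659). Cd5, a brake on antigen receptor signalling, was lower in Luxoid NKT (-0.88 ± 0.15, adjusted p = 0.00484) and in stage 1 NKT (-1.12 ± 0.16, adjusted p = 0.00293) than in CD4SP.

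**Figure D4:**
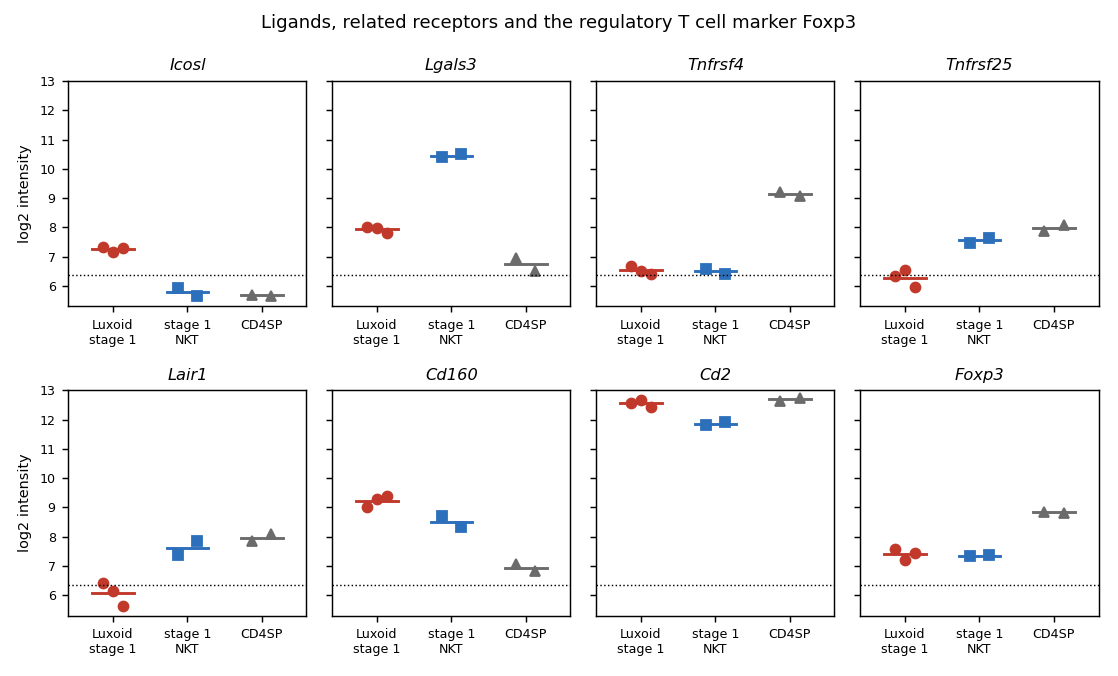
Panels plot the log2 intensity (y axis) of 2 ligand genes, 5 related receptor genes and the regulatory T cell marker Foxp3 by array in Luxoid stage 1 NKT (circles), stage 1 NKT (squares) and CD4SP (triangles), with bars at group means and a dotted line at 82. Icosl is above the line in Luxoid arrays alone, Tnfrsf25 and Lair1 are lowest in Luxoid arrays, and Tnfrsf4 and Foxp3 are highest in CD4SP.

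Behind the receptors, 15 of 17 signalling genes were tested, with a median difference of 0.01 between Luxoid and stage 1 NKT. By limma's adjusted p 0 passed, where 1.55% of all genes did, so 0 of 15 is near that share. At an unadjusted p under 0.05 there were 4, and the share of all genes at that level is not given here. Traf1, an adaptor of tumour necrosis factor receptors, read 214, 226 and 112 in Luxoid NKT, 382 and 476 in stage 1 NKT, and 1024 and 1184 in CD4SP. In Luxoid NKT it lay 6.27-fold below CD4SP (-2.65 ± 0.29, adjusted p = 0.000514), and Luxoid minus stage 1 NKT was -1.28 ± 0.29 (adjusted p = 0.0883). Traf1 was also lower in stage 1 NKT than in CD4SP (-1.37 ± 0.32, adjusted p = 0.0229). That call was lost without any 1 of the 4 arrays compared (0.0758 to 0.155). Dok1, an adaptor related to the Dok2 of CD200R1 signalling, stood above CD4SP in Luxoid NKT (0.81 ± 0.15, adjusted p = 0.00756, and 0.0742 without CD4SP array 2).

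Dok2, the adaptor that CD200R1 recruits, was higher in stage 1 NKT than CD4SP by 0.83 ± 0.16 (adjusted p = 0.0111), which missed the threshold without CD4SP array 1 (0.0781) or without either stage 1 NKT array. Rasa1 stood above CD4SP in stage 1 NKT (0.67 ± 0.15, adjusted p = 0.0206) and Luxoid NKT (0.54 ± 0.14, 0.0320), and Vav1 below it in stage 1 NKT (-0.57 ± 0.15, 0.0367). Both stage 1 NKT calls were lost without any 1 of the 4 arrays compared (0.0683 to 0.165). The Luxoid call on Rasa1 was lost without any 1 array other than Luxoid array 2 (0.0536 to 0.188).

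Of 9 genes that control receptor RNA or surface level, all 9 were tested. By limma's adjusted p 0 passed between Luxoid and stage 1 NKT, where 1.55% of all genes did, so 0 of 9 is near that share. At an unadjusted p under 0.05 there were 3, again without a share of all genes to set beside them. Rc3h1, which encodes Roquin-1, a protein that destabilises Icos RNA, read 1877, 1555 and 1747 in Luxoid NKT, 1918 and 1582 in stage 1 NKT, and 2373 and 1889.8 in CD4SP, with a Luxoid minus stage 1 NKT difference of -0.02 (adjusted p = 0.982). The Luxoid and stage 1 NKT arrays overlapped for Rc3h1. Between Luxoid NKT and CD4SP 1 of the 9 genes was higher and 2 were lower, where 11.3% and 5.51% of all genes were. Trat1 was lower by -0.85 ± 0.18 (adjusted p = 0.0143) and Zc3h12a by -0.74 ± 0.20 (0.0384), and Siva1 was higher by 0.65 ± 0.17 (0.0322). Each of these calls was lost without either CD4SP array (0.0519 to 0.211). Siva1, whose product binds the CD27 tail, was higher in stage 1 NKT than in CD4SP (1.16 ± 0.19, adjusted p = 0.00441, and 0.0659 without both mixed-sex pools).

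For each member that passed in some comparison, the tested genes with the most similar pattern were found by the root-mean-square difference of log2 values centred over the 7 arrays. Icos was nearest to Ifi30 (0.09) and Fxyd4 (0.12), and Pdcd1 to Sccpdh (0.10) and Cap2 (0.14). Ctla4 was nearest to Tnfrsf4 (0.22) and Pvr (0.22), and Tnfrsf9 to Znrf1 and Fam78a (0.11 each). By this distance Cd200r1 had no neighbour as close: its nearest were Chl1 (0.32, Pearson r = 0.959) and Neurl3 (0.40, r = 0.946). Those of Lag3 were Arid5b (0.17, r = 0.929) and Stk39 (0.18, r = 0.914). The log2 range over the arrays was 3.24 for Cd200r1 and 1.21 for Lag3, so their distances are not on a like scale. These distances describe 7 arrays in 3 groups and carry no test.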

How the data were processed

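The deposited values are RMA intensities on a linear scale (3.08 to 20875), made by the authors with RMA and Affymetrix Expression Console per the submitters' processing notes. RMA corrects background, normalizes by quantiles and summarises probe sets, which compresses differences between dim probe sets. The sources used here state no versions. Here log2 was taken first. Probe sets were named from GEO's platform annotation: of 45037, 34945 had 1 symbol, 932 several and 9160 none listed. RefSeq GRCm38.p6 matched 34741 by gene ID and changed 0 symbols. No detection calls were used. An intensity of 82 served as filter and as the floor of "at least" folds, and no fold is given where both groups lay under it.

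The linear model of limma 3.58.1 under R 4.3.3 held 1 mean for each group of arrays (lmFit, eBayes; 4 residual and 4.49 prior degrees of freedom), two-sided, with Benjamini-Hochberg over 10874 genes. The fit was tested on simulated data. The labels call the samples biological replicates of pooled mice; p-values measure the spread between these pools. Members, gene lists and alternatives were chosen with earlier results of these data known. Named are all members and the 2 nearest genes of each called member. Of each list, at most 4 called genes per comparison were named by size, and at most 2 uncalled by level. Not every call of a named list gene is printed. Cd200r3, Cd200r4 and Cpa3 were named after their values were seen. Same-numbered arrays correlated at 0.334 to 0.491 in their deviations from group means. Arrays numbered 1 lacked Y-linked signal and those numbered 2 carried it, so number and sex of the pools cannot be told apart here. In a group of 2 arrays the deviations are mirror images. Each comparison has only 2 same-numbered pairs, so the replicate block is an alternative. Others were the filter, the probe set rule, normalization, the model of the spread, a Y-linked covariate and leaving arrays out.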

Additional observations from a re-analysis of the deposited data

How the results depend on the processing

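Over 18 alternatives for each member and comparison, 440 values kept direction and side of the threshold, 22 lost the call, 2 gained one and 19 changed sign. Icos, Pdcd1, Ctla4 and Cd200r1 passed under all 18 for stage 1 NKT minus CD4SP, and Pdcd1 and Ctla4 under all 18 for Luxoid minus CD4SP. Without both mixed-sex pools 10 genes passed for Luxoid minus stage 1 NKT, with 0 members higher and 0 lower, 520 for stage 1 NKT minus CD4SP, with 2 members lower, and 918 for Luxoid minus CD4SP, with 1 member higher and 1 lower. That fit leaves 1 stage 1 NKT array. With a mean-variance trend 2 members were higher for Luxoid minus stage 1 NKT. For Luxoid minus CD4SP 1 member was lower with no intensity filter, with the mean of probe sets, with median centring and with the trend, where 3 were higher; 1 was higher with the stricter filter, which Lag3 did not pass, and 2876 probe sets passed when every probe set was tested. With the mean of probe sets 2 members were lower for stage 1 NKT minus CD4SP.

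With the replicate block the count for stage 1 NKT minus CD4SP was 2616 against 1621, and Icos and Cd200r1 kept their Luxoid minus stage 1 NKT calls (-1.05 and 2.63). Leaving out 1 array gave 55 to 178, 643 to 1846 and 866 to 1726 genes for Luxoid minus stage 1 NKT, stage 1 NKT minus CD4SP and Luxoid minus CD4SP, with 0 to 1 members lower in the first and 1 to 2 higher and 1 to 2 lower in the last.

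Sign changes were all of uncalled values near 0. For Luxoid minus stage 1 NKT, leaving out 1 array gave -0.11 to 0.28 for Ctla4, -0.11 to 0.22 for Pdcd1 and -0.0103 to 0.0822 for Cd27, and Pdcd1 was -0.0774 without both pools. For Luxoid minus CD4SP, leaving out 1 array gave -0.135 to 0.0504 for Icos and -0.0993 to 0.0219 for Cd27. Icos was 0.00703 and Cd200r1 -0.00311 with the mean of probe sets, Icos 0.0105 and Cd27 0.00869 with median centring, and Icos 0.0217 and Cd27 0.00639 both with the block and without both pools. The cause of these shifts was not tested. The small number of arrays and values under the filter (Ctla4 in NKT, Cd200r1 in stage 1 NKT) limit what can be read.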
